A study of Gallus gallus with 21 samples.

Results

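The transcripts described here encode the precursors of 10 neuropeptides of the chick retina, several of them studied in the control of eye growth. The 10 genes are VIP, GCG, ADCYAP1, PENK, SST, NTS, TAC1, NPY, CCK and UTS2B, chosen by gene symbol from a table of 18631 genes, and all 10 were found. The retinas came from wild-type White Leghorn chickens that received no treatment and formed the control arm of the study. They were collected at 1, 3 and 6 days (postnatal day 4, 6 and 9), counted from a start at postnatal day 3, with 7 libraries per age and 21 in all. RNA was total RNA depleted of ribosomal RNA, from whole retina, so a lower level cannot be told apart between fewer cells of a type and less RNA per cell. Per the labels it is unknown whether some libraries share a bird, so each p-value measures library-to-library spread.

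Neuropeptides are cut from longer precursor proteins, packed into dense core vesicles and released to act on receptors of nearby cells. In the retina most are made by subclasses of amacrine cells, the inhibitory interneurons between bipolar and ganglion cells. In chicks, glucagon-producing amacrine cells respond to the sign of defocus by changing the transcription factor EGR1, glucagon slows eye elongation, and enkephalin, neurotensin and somatostatin occur together in another amacrine subclass.

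Values are CPM, the reads of a gene as a share of all reads of its library, scaled to a common total. Library totals, estimated from the step between the lowest values, were 27.7 to 41.4 megareads, with a median of 36.2 megareads. Gene lengths were not used here, so CPM is compared between ages and not between genes. The retina label was checked on 14 retinal genes, whose summed level was 638 to 901 CPM at 1 day, 656 to 918 CPM at 3 days and 825 to 999 CPM at 6 days. Markers of other tissues were present in part, since 6 of 10 genes of pigment epithelium, 4 of 10 of fibroblasts and vessels and 3 of 6 of the lens passed the filter on low values given below. Their summed levels over all ages were 32.8 to 42.6 CPM, 41.01 to 71.0 CPM and 14.8 to 23.5 CPM in that order. Listed genes near 0 included COL1A1 of fibroblasts, MIP of the lens and BEST1 of the pigment epithelium, with means over all libraries of 0.0120, 0.00611 and 0.0796 CPM. RPE65 and MITF of the pigment epithelium and KDR of vessels were among those that passed the filter, so other tissue cannot be called absent. HINTW, a gene of the female-specific W chromosome, lay at 121 CPM or more in 13 libraries and at 0.549 CPM or less in the other 8. The 13 comprised 3 of the 1-day, 4 of the 3-day and 6 of the 6-day libraries, so this division is unequal over the ages and its values are given beside the results it touches.

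A gene was tested when it reached 0.5 CPM in at least 7 libraries, which left 12614 genes and 9 of the 10 peptide genes. Changes below are log2 fold changes of CPM + 0.5 from a limma fit across all of those genes, with an adjusted p under 0.05 (Benjamini-Hochberg over 12614 genes) as the threshold. The added 0.5 CPM makes changes of genes near 1 CPM look smaller than they are. The comparisons share libraries, so their values are set side by side and not counted as separate evidence. Shares of all genes refer to adjusted p throughout. Genes named or counted by unadjusted p have no like share beside them, so an excess cannot be read from those counts.

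Of the 27 differences tested, 9 peptide genes in 3 comparisons, the fall of UTS2B at 6 days against 1 day was the single one past the threshold. At 3 days against 1 day, 0 of 9 peptide genes passed with limma, while 10.1% of all genes tested did (7.71% higher and 2.43% lower). PENK and CCK were under 0.05 by unadjusted p. At 6 days against 3 days, 0 of 9 passed beside 22.3% of all genes (17.4% higher and 4.93% lower), and GCG alone was under 0.05 by unadjusted p. At 6 days against 1 day, 1 of 9 passed, beside 32.5% of all genes in either direction and 2.57% in the lower one. ADCYAP1 and NPY were also under 0.05 by unadjusted p there. No peptide gene passed the limma F test for a difference at any age (0 of 9, beside 38.6% of all genes), although UTS2B (adjusted p = 0.0609) and PENK (adjusted p = 0.0640) had an unadjusted p under 0.05.

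The median change of the 9 peptide genes was -0.01 at 3 days against 1 day, 0.01 at 6 days against 3 days and -0.09 at 6 days against 1 day. Over all genes tested the medians were 0.07, 0.07 and 0.14 for the same comparisons. Relative to that median, 6, 7 and 7 of the 9 peptide genes lay below it. The shift of the whole table depends on scaling. After median-of-ratios scaling, which centres the typical gene on 0, the median of the 9 genes at 6 days against 1 day was -0.24. With it 1059 of all 12614 genes were higher and 1068 lower in that comparison, instead of 3779 and 324. Genes of the table held 29.9% to 31.9% of the library totals at 1 day and 32.9% to 34.2% at 6 days. The part of this share in the shift was not tested. The 13 libraries with HINTW are called W-linked below. Among them alone 174 of the 12614 genes were higher and 96 lower at 3 days against 1 day. The counts were 838 and 364 at 6 days against 3 days, and 776 and 86 at 6 days against 1 day. A call lost in that setting cannot be told apart from the smaller number of libraries.

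**Figure D1:**
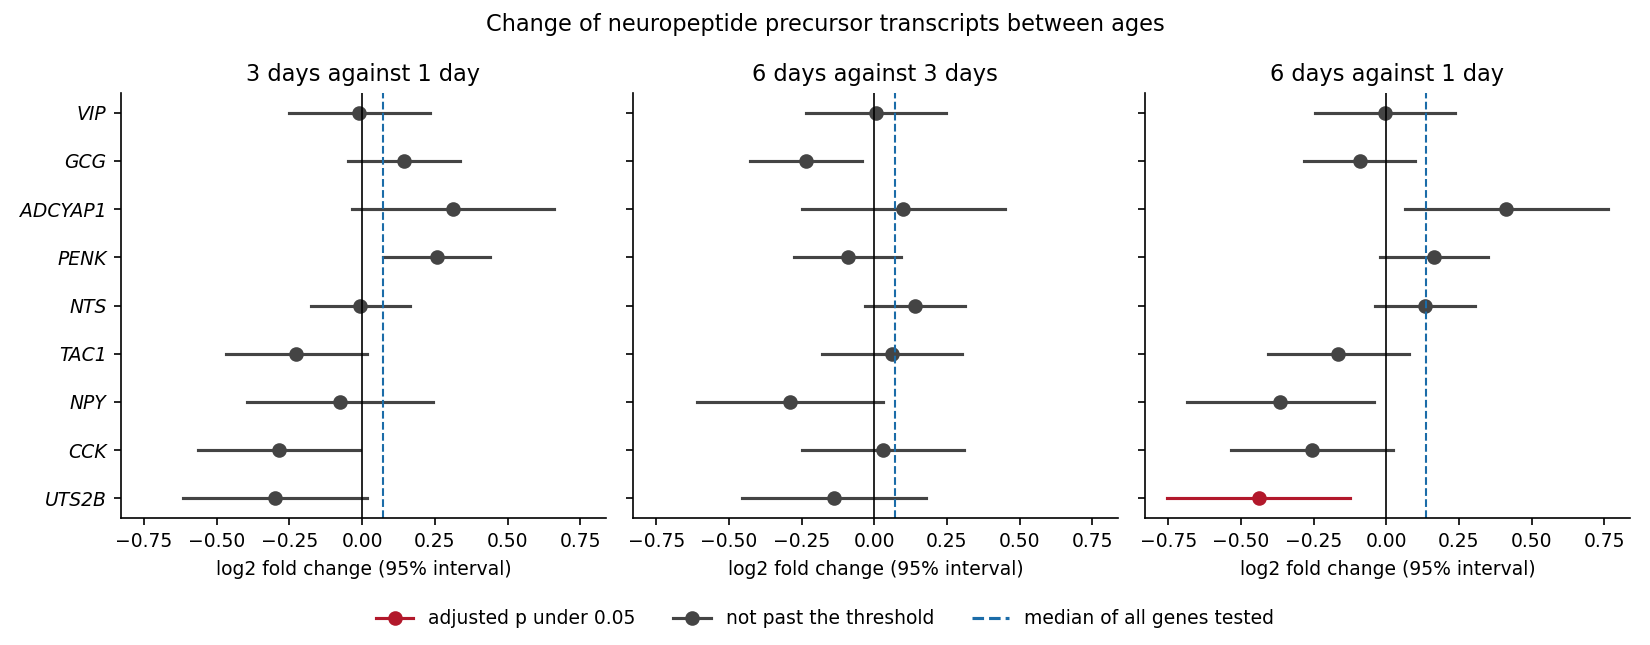
Log2 fold change of 9 peptide transcripts in 3 comparisons of ages, with 95% intervals from limma. The blue dashed line is the median of all 12614 genes tested, and UTS2B at 6 days against 1 day, at -0.44, is the single one past the threshold.

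VIP (GRCg6a chr3:49586424-49593145, plus strand) encodes vasoactive intestinal peptide, an amacrine transmitter that acts on VIPR1 and VIPR2. It lay at 0.541, 0.769 and 0.959 CPM (lowest, median and highest) at 1 day. At 3 days the values were 0.526, 0.748 and 1.07 CPM, and at 6 days they were 0.567, 0.760 and 1.02 CPM. The 3 ages overlapped almost wholly, with means of 0.761 ± 0.175, 0.755 ± 0.199 and 0.755 ± 0.163 CPM (SD, n = 7 each). The difference of 6 days from 1 day was -0.00 with a 95% interval of -0.25 to 0.24, so that changes beyond these bounds lay outside the interval. VIP rested on 572 reads in all 21 libraries, and 1 library held at most 41.

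GCG (chr7:21113155-21132292, plus strand) encodes proglucagon, the precursor of glucagon and of glucagon-like peptides. Its lowest, median and highest levels were 11.7, 14.9 and 18.7 CPM at 1 day, 13.3, 16.8 and 19.6 CPM at 3 days, and 13.0, 14.2 and 14.5 CPM at 6 days. All 7 libraries at 6 days lay below the mean of the 3-day libraries, and 2 lay below the lowest of them. The means were 13.9 ± 0.605 CPM at 6 days and 16.5 ± 2.32 CPM at 3 days (SD, n = 7 each), a difference of -0.23 (SE 0.09, limma adjusted p = 0.0705) that did not pass. It passed with median-of-ratios scaling (-0.30, adjusted p = 0.0449), with quantile normalization (-0.34, adjusted p = 0.0249), with those 2 ages alone in the fit (adjusted p = 0.0452), and without the 3-day library C34L (adjusted p = 0.0436) or C41R (adjusted p = 0.0249). It was -0.18 with the W-linked level as a covariate (adjusted p = 0.136) and -0.14 among W-linked libraries alone (adjusted p = 0.376), and neither passed.

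The spread of GCG also differed by age. Its coefficient of variation was 16.6% at 1 day, 14.1% at 3 days and 4.36% at 6 days, against 4.35%, 4.05% and 4.51% from read counting alone. The 6-day libraries therefore scattered no more than counting gives. Libraries with W-linked transcripts averaged 14.2 ± 1.58 CPM of GCG (SD, n = 13) and libraries without them 16.6 ± 2.35 CPM (SD, n = 8), and 6 of 7 libraries at 6 days were of the first kind. With age in the limma fit that difference was -0.20 (adjusted p = 0.157), and 0 of 9 peptide genes passed for this division beside 4.67% of all genes. GCG, NPY and NTS were under 0.05 by unadjusted p. Among W-linked libraries alone, GCG averaged 13.5 ± 1.61 CPM at 1 day (n = 3), 15.3 ± 2.24 CPM at 3 days (n = 4) and 13.8 ± 0.648 CPM at 6 days (n = 6). The part of this division in the spread of GCG was not tested. The first bases of GCG overlap the end of FAP, a gene on the same strand that stayed at 0.399 CPM or less, and GCG gave a whole number of reads in 7 of 21 libraries, whereas the other 9 peptide genes did so in 21 of 21.

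ADCYAP1 (chr2:101835255-101838087, minus strand) encodes PACAP, a relative of VIP that acts mainly on ADCYAP1R1. Its lowest, median and highest levels were 0.620, 0.973 and 2.02 CPM at 1 day, 0.902, 1.59 and 2.05 CPM at 3 days, and 1.19, 1.59 and 2.54 CPM at 6 days. At 6 days 6 of 7 libraries lay above the 1-day mean, but the groups overlapped and 2 exceeded the highest 1-day library. The level averaged 1.73 ± 0.485 CPM at 6 days and 1.19 ± 0.486 CPM at 1 day, and the difference of 0.41 (SE 0.17, 95% interval 0.06 to 0.76, limma adjusted p = 0.0630) missed the threshold. It passed without 1 of 4 libraries, namely C19L (adjusted p = 0.0182), C23R (0.0372), C42L (0.0488) or C63R (0.0409). It passed in 0 of 12 other settings (adjusted p from 0.0552), and among W-linked libraries alone it was 0.05 (adjusted p = 0.892).

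PENK (chr2:111379987-111384314, minus strand) encodes proenkephalin, the source of the enkephalins, which are opioid peptides. Its levels were 13.8, 16.2 and 17.4 CPM at 1 day, 14.7, 18.8 and 23.1 CPM at 3 days, and 13.7, 17.9 and 21.8 CPM at 6 days (lowest, median and highest). At 3 days 6 of 7 libraries lay above the highest 1-day library, and the seventh, C31L, lay within the 1-day range. The means were 19.1 ± 2.59 CPM at 3 days and 15.8 ± 1.34 CPM at 1 day, with a difference of 0.26 (SE 0.09, limma adjusted p = 0.0667). Without C31L it was 0.32 and passed (adjusted p = 0.0204), as it did without C59L of the 6-day group (adjusted p = 0.0444), which enters through the shared spread. These were 2 of 21 fits without 1 library. It passed in 0 of 13 other settings (adjusted p from 0.0584 to 0.241), and was 0.18 with median-of-ratios scaling (adjusted p = 0.241) and 0.20 with quantile normalization (adjusted p = 0.164). The difference of 6 days from 1 day was 0.16 (adjusted p = 0.161), passed without C59L (0.23, adjusted p = 0.0441) and shrank to 0.02 with median-of-ratios scaling.

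NTS (chr1:42207151-42223590, plus strand) encodes neurotensin, and it was the best covered of the 10 with 58281 reads. Its levels were 61.2, 73.4 and 85.7 CPM at 1 day, 62.6, 75.7 and 83.9 CPM at 3 days, and 68.7, 80.0 and 94.98 CPM at 6 days. The ranges overlapped, and 3 of 7 libraries at 6 days exceeded every earlier one. They were C59L, C63R and C64L, all with W-linked transcripts. Libraries with W-linked transcripts averaged 80.5 ± 7.98 CPM of NTS (n = 13) and those without 71.6 ± 8.76 CPM (n = 8). NTS averaged 82.1 ± 9.94 CPM at 6 days, against 74.8 ± 8.47 CPM at 1 day (0.13, SE 0.08, limma adjusted p = 0.220). This difference changed sign with median-of-ratios scaling, at -0.02. It was 0.07 with the W-linked level as a covariate (limma adjusted p = 0.565) and 0.06 among W-linked libraries alone (adjusted p = 0.755). Counting gave NTS a coefficient of variation of 1.91%, and the libraries of an age scattered by 11.6%.

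SST (chr9:14960081-14961615, plus strand) encodes somatostatin and lay near the detection limit, with 17 reads in all. It had no read in 12 of 21 libraries, which allows levels of up to 0.0774 to 0.108 CPM there (3 reads per library, counting error only). The highest library held 1 read at 1 day, 5 reads at 3 days and 3 reads at 6 days, and 5 of 7 libraries at 6 days had any. SST did not reach the filter and was not tested.

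TAC1 (chr2:24644607-24650419, plus strand) encodes the precursor of substance P and neurokinin A. It lay at 3.45, 5.29 and 6.59 CPM at 1 day, 3.84, 4.27 and 4.90 CPM at 3 days, and 3.61, 4.22 and 5.97 CPM at 6 days (lowest, median and highest). All 7 libraries at 3 days lay below the 1-day mean, yet none lay below the lowest 1-day library. The means were 4.33 ± 0.412 CPM at 3 days and 5.22 ± 1.03 CPM at 1 day (-0.23, SE 0.12, limma adjusted p = 0.217). At 6 days TAC1 averaged 4.58 ± 0.886 CPM.

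NPY (chr2:31464139-31472049, plus strand) encodes neuropeptide Y. Its lowest, median and highest levels were 0.697, 1.07 and 1.49 CPM at 1 day, 0.593, 1.05 and 1.57 CPM at 3 days, and 0.309, 0.760 and 1.06 CPM at 6 days. All 7 libraries at 6 days lay below the 1-day mean and 3 of them below its lowest library. NPY averaged 0.731 ± 0.258 CPM at 6 days and 1.08 ± 0.293 CPM at 1 day, a difference of -0.36 (SE 0.16, 95% interval -0.69 to -0.04, limma adjusted p = 0.0740). It passed with median-of-ratios scaling (-0.46, adjusted p = 0.0380), quantile normalization (-0.44, adjusted p = 0.0352) and the W-linked level as a covariate (-0.50, adjusted p = 0.0204), and without the 1-day library C17L (adjusted p = 0.0465) or the 6-day library C58R (adjusted p = 0.0435). It did not pass among W-linked libraries alone (-0.38, adjusted p = 0.190), with the code letter as a covariate (-0.31, adjusted p = 0.128) or with no filter (adjusted p = 0.108). In all, the NPY difference passed in 4 of 12 other settings and in 2 of 21 fits without 1 library. Libraries with W-linked transcripts averaged 0.985 ± 0.290 CPM (n = 13) and those without 0.857 ± 0.357 CPM (n = 8). The single 6-day library without them, C65L, was the lowest of all at 0.309 CPM.

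CCK (chr2:43774048-43778727, minus strand) encodes cholecystokinin. Levels were 1.41, 1.54 and 2.42 CPM at 1 day, 0.923, 1.28 and 1.70 CPM at 3 days, and 0.945, 1.30 and 2.04 CPM at 6 days. Of the 3-day libraries 5 of 7 lay below every 1-day library, as did 4 of 7 at 6 days. CCK averaged 1.29 ± 0.284 CPM at 3 days and 1.69 ± 0.365 CPM at 1 day (-0.29, SE 0.14, limma adjusted p = 0.176), and at 6 days it averaged 1.35 ± 0.404 CPM (-0.25 against 1 day, adjusted p = 0.151).

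UTS2B (chr9:13858703-13865481, plus strand) encodes a urotensin-related peptide, a ligand of the urotensin receptor UTS2R, and fell between 1 and 6 days. Its lowest, median and highest levels were 0.982, 1.24 and 1.51 CPM at 1 day, 0.555, 0.851 and 1.40 CPM at 3 days, and 0.553, 0.722 and 1.504 CPM at 6 days. At 6 days 6 of 7 libraries lay below the lowest 1-day library, and the exception, C58R, stood at 1.504 CPM, near the top of the 1-day range. UTS2B averaged 0.811 ± 0.324 CPM at 6 days and 1.249 ± 0.219 CPM at 1 day (SD, n = 7 each). The difference was -0.44 (SE 0.15, 95% interval -0.75 to -0.12, limma adjusted p = 0.0306), and it was -0.55 (adjusted p = 0.00579) without C58R.

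The UTS2B call was close to the threshold. It was lost without any 1 of 7 libraries, the 1-day libraries C17L, C21R and C22L and the 6-day libraries C57L, C59L, C62L and C65L, with changes of -0.43 to -0.39 and adjusted p from 0.0506 to 0.0649. It was also lost with the W-linked level as a covariate (-0.37, adjusted p = 0.0977), with that covariate and median-of-ratios scaling together (-0.45, adjusted p = 0.0786), and among W-linked libraries alone (-0.36, adjusted p = 0.281). In the W-linked libraries UTS2B averaged 0.848 ± 0.338 CPM at 6 days (n = 6) and 1.20 ± 0.275 CPM at 1 day (n = 3). Of the libraries without them, the single one at 6 days stood at 0.588 CPM, against 1.28 ± 0.206 CPM at 1 day (n = 4). The 6-day values rested on 19 to 51 reads per library.

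**Figure D2:**
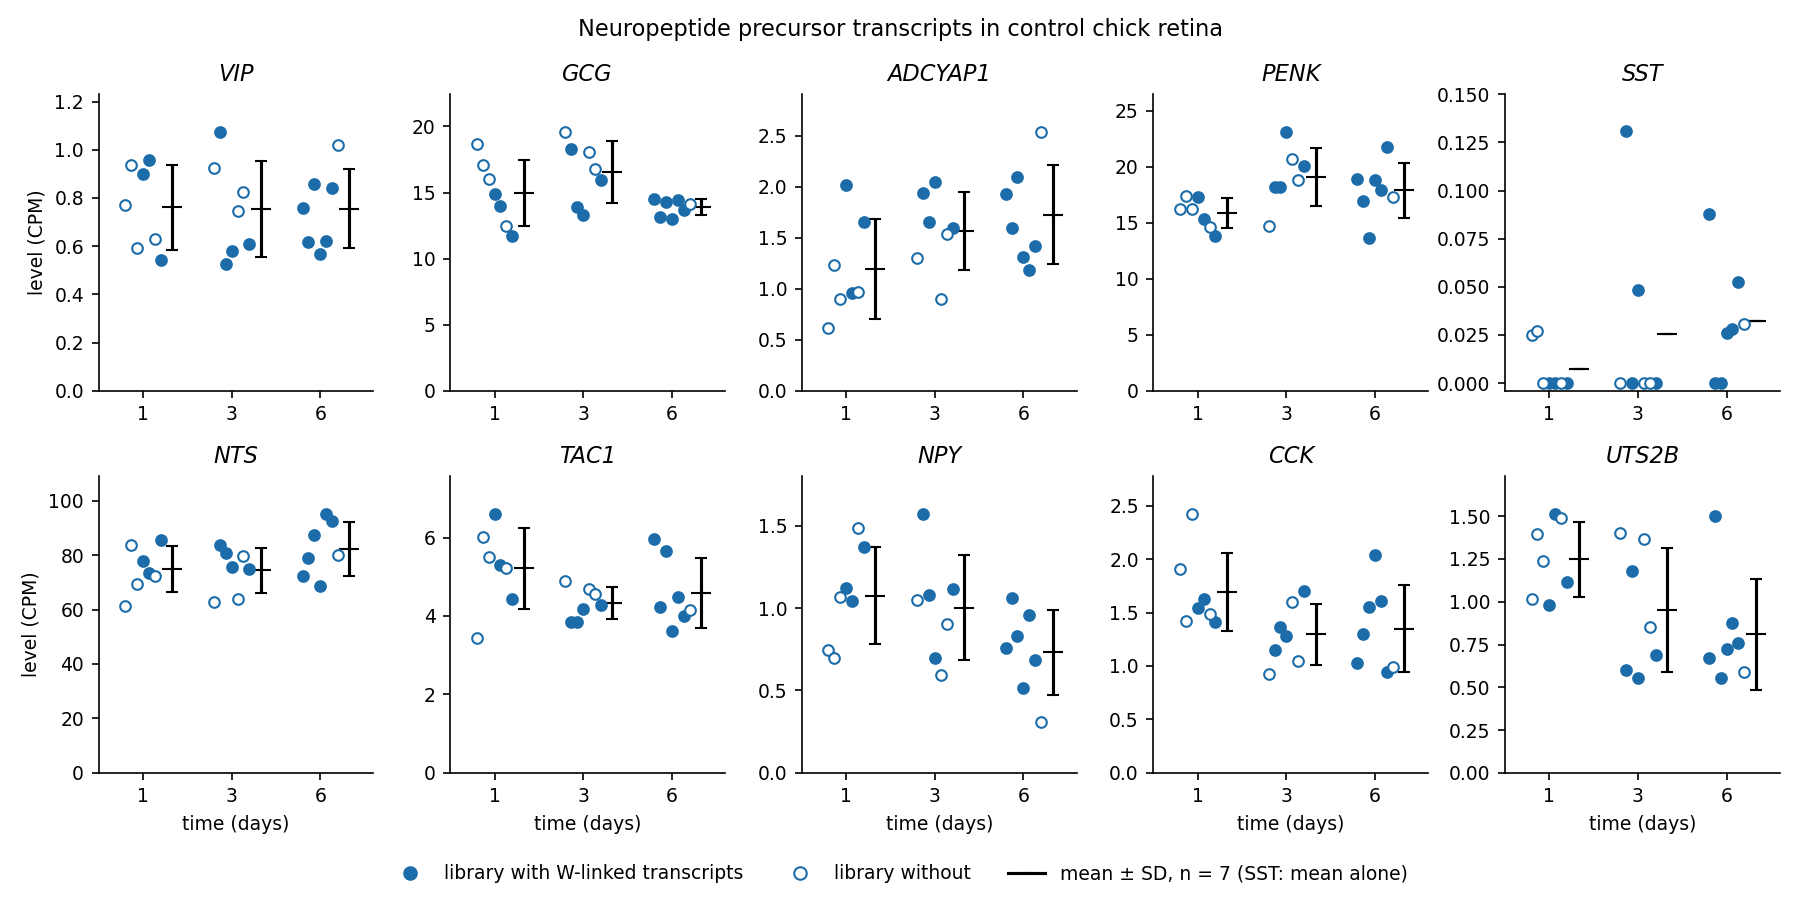
Level of each of the 10 peptide transcripts (CPM) at 1, 3 and 6 days, 1 point per library, filled for libraries with W-linked transcripts and open for those without. Bars give the mean ± SD (n = 7), SST shows the mean alone, and most UTS2B points at 6 days lie below those at 1 day except C58R at 1.504 CPM.

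The change from 3 to 6 days was also set against that from 1 to 3 days. No peptide gene passed this limma test (0 of 9, beside 11.8% of all genes). GCG (-0.38, adjusted p = 0.131) and PENK (-0.35, adjusted p = 0.153) were under 0.05 by unadjusted p, both with their highest mean at 3 days. The letter L or R that ends each library code gave 0 of 9 calls, beside 0% of all genes, and no peptide gene was under 0.05 by unadjusted p.

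**Figure D3:**
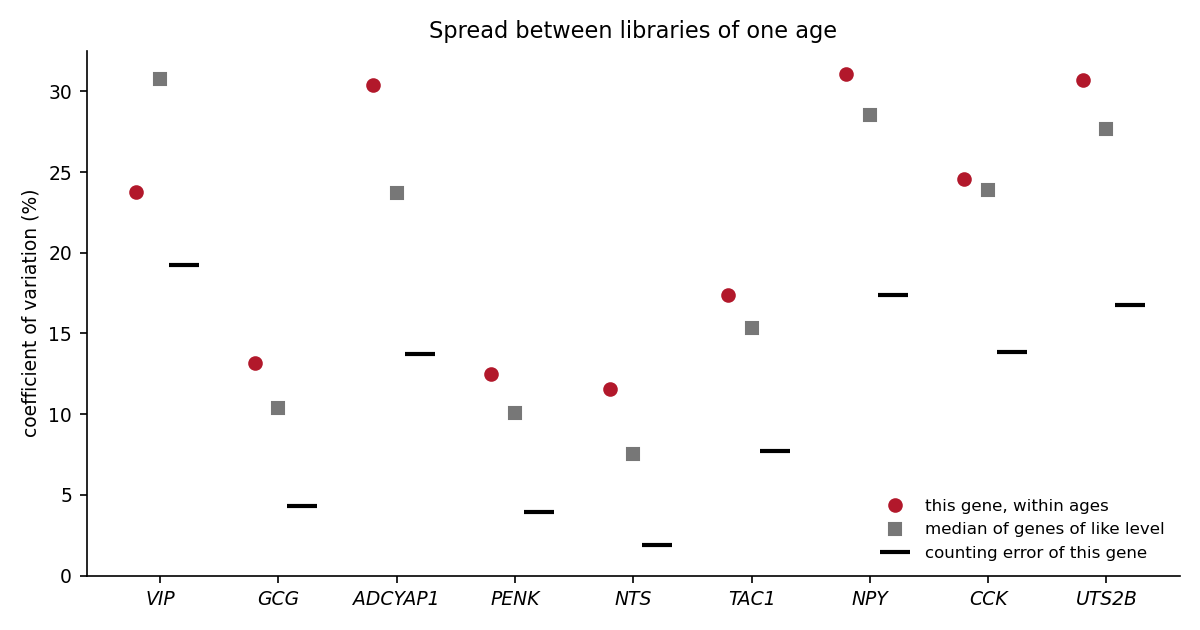
Coefficient of variation (%) between libraries of one age for 9 peptide transcripts, beside the median of genes of like level and the error from read counting. As a ratio NTS lies farthest above counting error, at 11.6% against 1.91%, and VIP lies closest, at 23.8% against 19.2%.

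How much the peptide transcripts varied between libraries of one age differed among them. VIP had a within-age coefficient of variation of 23.8%, below the median of 30.7% for the 798 genes of like level. ADCYAP1 had 30.4% beside a median of 23.7%, and NTS had 11.6% beside 7.51%. For GCG and PENK the values were 13.2% and 12.5%, beside 10.4% and 10.1%, and NPY and UTS2B scattered by 31.1% and 30.7%, beside 28.5% and 27.6%. In 8 of the 9 genes the spread thus exceeded that median, with VIP as the exception.

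Relations between the peptide genes were examined over the 21 libraries on median-of-ratios scaled log2 values, as 36 pairs plus GCG with EGR1. None of the 37 passed after adjustment, and 5 had a permutation p under 0.05. The strongest was ADCYAP1 with UTS2B, at Pearson's r = -0.61 (permutation p = 0.00336, adjusted p = 0.0988) and Spearman's rho = -0.67 (permutation p = 0.00140, adjusted p = 0.0518). It was -0.62 without the 2 farthest libraries and -0.51 on deviations from the age means. Within the W-linked libraries it was -0.41 and within the others -0.70.

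ADCYAP1 and CCK gave r = -0.58 (rho = -0.57, permutation p = 0.00534 and 0.00794, adjusted p = 0.0988 and 0.0979), or -0.44 without the 2 farthest libraries, -0.30 within the W-linked libraries and -0.77 within the others. VIP and GCG gave r = 0.54 (rho = 0.60, permutation p = 0.0130 and 0.00472, adjusted p = 0.160 and 0.0873). This was 0.49 without the 2 farthest libraries, 0.58 within the W-linked libraries and 0.26 within the others. The products of VIP, GCG and ADCYAP1 belong to one peptide family, but the other pairs of these genes did not share that sign clearly. ADCYAP1 gave r = 0.02 with VIP (permutation p = 0.940) and -0.44 with GCG (permutation p = 0.0488, adjusted p = 0.339). The relation with GCG was -0.27 without the 2 farthest libraries and -0.44 on deviations from the age means. Its sign changed within the W-linked libraries, at 0.19, and it was -0.53 within the others. EGR1 was measured here in whole retina and not in glucagon amacrine cells alone. GCG and EGR1 gave r = 0.40 (rho = 0.42, permutation p = 0.0707 and 0.0573, adjusted p = 0.374 and 0.424). That relation was 0.36 without the 2 farthest libraries, 0.24 on deviations from the age means, 0.12 within the W-linked libraries and 0.29 within the others.

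**Figure D4:**
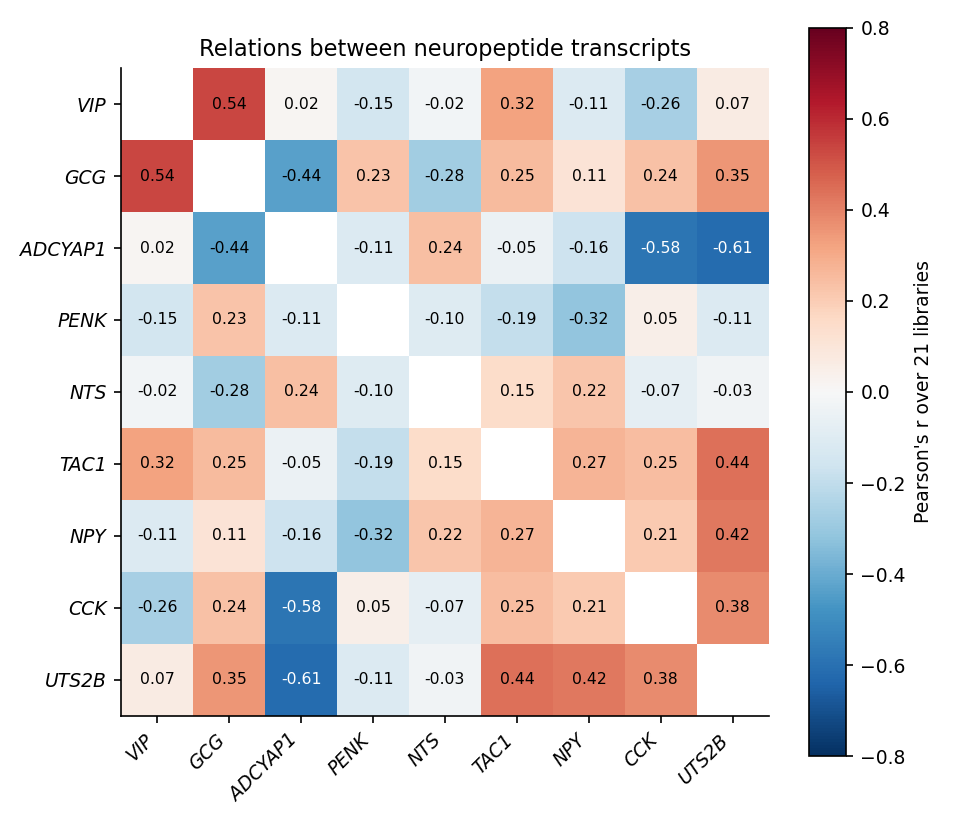
Pearson's r between 9 peptide transcripts over 21 libraries on median-of-ratios scaled log2 values. The lowest are ADCYAP1 with UTS2B (-0.61) and with CCK (-0.58), the highest is VIP with GCG (0.54), and none passed after adjustment over 37 relations.

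The genes whose levels followed each peptide most closely over the 21 libraries were taken from 10106 genes with a mean of at least 1 CPM, 3 per peptide gene and 27 in all, with r from 0.64 to 0.88. These values are a description, since the highest of many were chosen. UTS2B lay closest to IMPG2, a proteoglycan of the photoreceptor matrix (0.88), GABRA2, a GABA receptor subunit (0.83), and LRP12 (0.82). NPY lay closest to MRAP2, an accessory protein of melanocortin receptors (0.87), DISP1 and BTBD11. The first for TAC1 was the kinase gene STK39 (0.85), followed by C5H14orf166 and PELI1.

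GCG was followed by DOCK8 (0.84), OXCT1, an enzyme of ketone body use (0.80), and ITGA2, an integrin subunit (0.80). All 3 lie on chromosome Z, of which male birds carry a pair, while GCG lies on chromosome 7. PENK was followed by PPP1R9A (0.82), PPP3CA, a calcineurin subunit, and MYO3A. For the others the first genes were LRIT2 for ADCYAP1 (0.78), RNF4 for NTS (0.74), SLC6A19, an amino acid transporter, for VIP (0.73) and ATG7, an autophagy gene, for CCK (0.72). On deviations from the age means 11 of the 27 stayed among the first 3 of their peptide gene, and 18 did so with CPM as deposited.

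Receptors for these peptides were detected for most families. Of 29 receptor genes listed, 27 were in the table and 16 were tested. At 3 days against 1 day 0 of the 16 passed with limma (3 by unadjusted p under 0.05, and 0 with median-of-ratios or quantile scaling), beside 10.1% of all genes, and at 6 days against 1 day 1 rose and 1 fell, beside 30.0% and 2.57% of all genes. NTSR1, the neurotensin receptor, rose at 6 days to 5.34 ± 0.888 CPM, against 4.17 ± 0.573 CPM at 1 day (0.32, SE 0.11, adjusted p = 0.0273). It no longer passed with median-of-ratios scaling (0.18, adjusted p = 0.230), quantile normalization (0.13, adjusted p = 0.385) or W-linked level in the fit (0.27, adjusted p = 0.0856), among W-linked libraries alone (0.25, adjusted p = 0.330), or without C22L, C63R, C64L or C65L (adjusted p up to 0.0691). VIPR2, a receptor for VIP and PACAP, fell to 4.18 ± 0.420 CPM at 6 days, against 5.58 ± 1.02 CPM at 1 day (-0.36, SE 0.13, adjusted p = 0.0297), and was lower with median-of-ratios scaling too (-0.50, adjusted p = 0.0123). The VIPR2 call was lost with the W-linked covariate (-0.33, adjusted p = 0.0792), among W-linked libraries alone (-0.20, adjusted p = 0.534), and without C10R, C17L, C18R, C19L, C22L, C57L or C65L (adjusted p up to 0.0622). Its 6-day libraries reached 4.92 CPM at most, while the 1-day median was 5.86 CPM. The median of the 16 receptors was 0.09, below that of all genes at 0.14.

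VIPR1 averaged 21.3 ± 2.59 CPM at 6 days and 19.8 ± 2.80 CPM at 1 day (0.11, limma adjusted p = 0.338). ADCYAP1R1, the main PACAP receptor, averaged 16.6 ± 1.42 CPM at 1 day, 18.9 ± 1.73 CPM at 3 days and 16.6 ± 0.981 CPM at 6 days, and fell at 6 days against 3 days (-0.18, adjusted p = 0.0469). SSTR5, a somatostatin receptor near the filter, fell in the same comparison (-0.40, adjusted p = 0.0464), with 0.364 ± 0.117 CPM at 6 days and 0.650 ± 0.214 CPM at 3 days. Its 6-day mean lay under the 0.5 CPM of the filter. SSTR5 therefore entered the test only with libraries of the other ages, and its fall is not independent of the filter. Of the 16 receptors 0 rose and these 2 fell there, beside 17.4% and 4.93% of all genes. SSTR5 passed in 5 of 12 other settings, and it was lost with quantile normalization (-0.35, adjusted p = 0.104), a pseudocount of 0.05 CPM, no filter, the letter or W-linked covariate (with or without median-of-ratios scaling for the second), and W-linked libraries alone (-0.42, adjusted p = 0.0977). ADCYAP1R1 passed in 7 of 13, and it was lost with no filter, those 2 ages alone, robust empirical Bayes, the letter or W-linked covariate (-0.16 and adjusted p = 0.0794 for the second), and W-linked libraries alone (-0.18, adjusted p = 0.175). Both calls lay at the threshold, since ADCYAP1R1 passed in 9 and SSTR5 in 8 of 21 fits without 1 library (adjusted p up to 0.111 and 0.0980). Any of C10R, C31L, C33R, C43R, C44R, C57L, C58R or C64L ended both calls, C17L, C18R, C62L or C63R that of ADCYAP1R1, and C19L, C22L, C34L, C59L or C65L that of SSTR5.

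The remaining tested receptors did not pass at 6 days against 1 day. NPY1R (0.24, adjusted p = 0.0999) and NPY2R (0.23, adjusted p = 0.105) lay above the median of all genes. The opioid receptor OPRM1 had 0.17, OPRD1 -0.09 and OPRK1 -0.19, and NPY5R had 0.04. SSTR1 had 0.08, SSTR2 had 0.12, GLP2R had 0.10, and the neurotensin sorting receptor SORT1 had 0.21. UTS2R, the receptor for the UTS2B product, averaged 0.445 ± 0.188 CPM at 6 days and 0.514 ± 0.151 CPM at 1 day (-0.11, adjusted p = 0.537). Below the filter were GCGR, GLP1R, SSTR3, SSTR4, NPY4R, NPY6R, NPY7R, TACR1, TACR3, CCKAR and CCKBR, and TACR2 and NTSR2 were not analysed here.

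Of the genes that cut and package precursors, 18 of 20 were tested, and 7 rose and 1 fell at 6 days against 1 day, beside 30.0% and 2.57% of all genes, and a median of 0.14 equal to that of all genes. SCG2, the granule protein secretogranin II, rose to 43.7 ± 2.505 CPM at 6 days, against 32.4 ± 4.35 CPM at 1 day (0.44, SE 0.07, limma adjusted p = 0.000151). CPD, a carboxypeptidase that trims precursors, rose to 12.8 ± 2.24 CPM at 6 days, against 8.40 ± 0.731 CPM at 1 day (0.56, SE 0.10, adjusted p = 0.000334). The lowest 6-day library had 41.2 CPM of SCG2 and 10.9 CPM of CPD, and the highest 1-day library had 38.4 CPM and 9.18 CPM. How many of all genes have their groups apart in this way was not counted. CADPS, which primes vesicles (0.17, adjusted p = 0.00431), SCG3 (0.16, adjusted p = 0.00928), QPCT, PCSK2 and FURIN also rose. SCG2 and CPD passed in 13 of 13 other settings and in 21 of 21 fits without 1 library. The other 5 rises were lost with median-of-ratios scaling and among W-linked libraries alone, where 1059 and 776 of all 12614 genes were higher. PCSK2 also missed without C64L, and FURIN without C10R or C64L (adjusted p up to 0.0653).

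PCSK1, a convertase that makes the first cuts in many precursors, was the 1 gene lower, named after its value was seen. It averaged 20.1 ± 2.003 CPM at 6 days and 24.2 ± 3.64 CPM at 1 day (-0.25, SE 0.09, limma adjusted p = 0.0299). That call was lost with the W-linked covariate (-0.13, adjusted p = 0.144), among W-linked libraries alone (-0.10, adjusted p = 0.442), and without C17L, C18R, C22L, C62L or C63R (adjusted p up to 0.0761). With median-of-ratios scaling the list had 2 rises, CPD (0.42) and SCG2 (0.29), and 2 falls, PCSK1 (-0.40) and PCSK5 (-0.40), beside 1059 and 1068 of all 12614 genes. Quantile normalization likewise gave 2 and 2, beside 1032 and 993 of all genes. At 3 days against 1 day 3 of 18 were higher and 0 lower (PCSK6 0.47, PCSK2 0.22 and SCG3 0.18), beside 7.71% and 2.43% of all genes. PCSK2 (0.14, adjusted p = 0.0937) and SCG3 (0.098, adjusted p = 0.178) were lost with median-of-ratios scaling, and all 3 among W-linked libraries alone (adjusted p from 0.143 to 0.412). At 6 days against 3 days 3 were higher and 0 lower (CPD 0.53, SCG2 0.32 and QPCT 0.25), beside 17.4% and 4.93% of all genes, and QPCT was lost with quantile normalization (0.15, adjusted p = 0.0797).

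**Figure D5:**
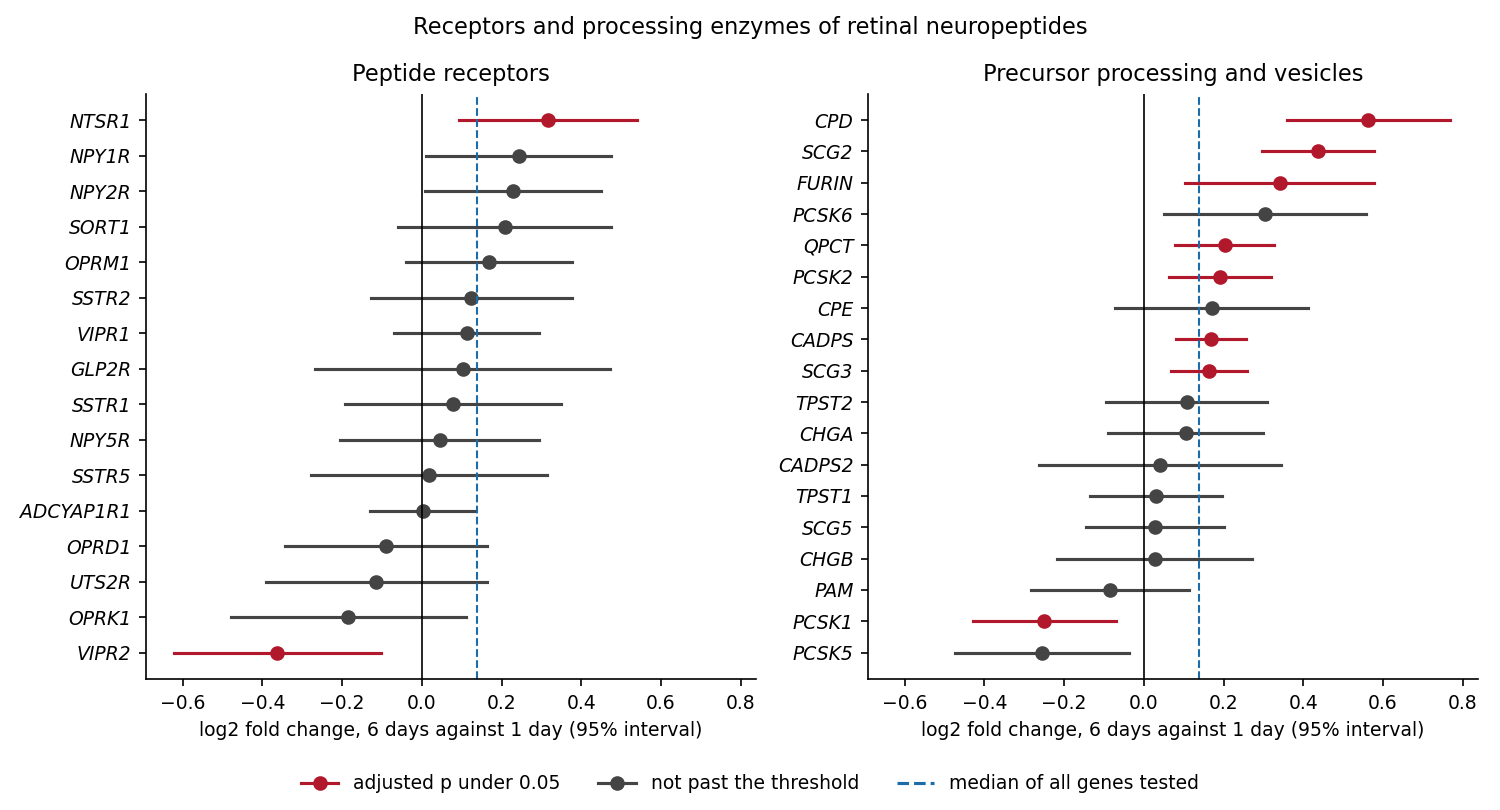
Log2 fold change at 6 days against 1 day for 16 peptide receptors and 18 genes of precursor processing, with 95% intervals from limma and red for those past the threshold. NTSR1 (0.32) and VIPR2 (-0.36) stand at the ends of the receptor panel and CPD (0.56) at the top of the other. With median-of-ratios scaling 2 of the processing genes were higher and 2 lower, beside 1059 and 1068 of all 12614 genes.

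Among 9 peptidases tested of 11 listed, 2 rose and 0 fell at 6 days against 1 day, beside 30.0% and 2.57% of all genes. They were ECE1 (0.40, limma adjusted p = 0.00667) and THOP1 (0.22, adjusted p = 0.0265), and with median-of-ratios scaling 0 of 9 passed (1 by unadjusted p under 0.05). Neither passed among W-linked libraries alone, where 776 of all 12614 genes were higher. THOP1 also missed without C17L, C18R, C23R, C57L or C62L (adjusted p up to 0.0605). Of 36 other neuropeptide genes listed, 24 were in the table and 5 were tested, CALCB, GNRH1, EDN2, EDN3 and GHRH. None of the 5 passed in any comparison of ages with limma. Of all genes, 10.1%, 22.3% and 32.5% passed at 3 days against 1 day, 6 days against 3 days and 6 days against 1 day. In that order 0, 1 and 0 of the 5 were under 0.05 by unadjusted p. With median-of-ratios scaling 1 fell at 6 days against 3 days, beside 1003 of all 12614 genes. With quantile normalization 1 fell there and 1 at 6 days against 1 day, beside 1113 and 993 of all genes. CALCB averaged 3.37 ± 0.712 CPM at 6 days and 3.92 ± 0.538 CPM at 1 day (-0.21, adjusted p = 0.191).

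Markers of amacrine cells, the main source of these peptides, gave a summed level of 1170 to 1276 CPM at 6 days and 1161 to 1244 CPM at 1 day. Of 20 tested, 6 rose and 0 fell at 6 days against 1 day, a share near the 30.0% of all genes called higher, with a median of 0.15 beside 0.14 for all genes. The 4 rises with the smallest adjusted p were CHAT of cholinergic cells (0.43), the transcription factor MEIS2 (0.31), the glycine transporter SLC6A9 (0.49) and TFAP2B (0.17). Of the 20 markers, 11 lay above the median of all genes. With median-of-ratios scaling 1 rose, CHAT (0.29), and 3 fell, beside 1059 and 1068 of all 12614 genes. With quantile normalization 0 rose, CHAT included, and 3 fell, beside 1032 and 993 of all genes. The 6 rises were lost among W-linked libraries alone, where 776 of all 12614 genes were higher, instead of 3779. At 6 days against 3 days 1 of the 20 rose and 0 fell, beside 17.4% and 4.93% of all genes. There 0 rose and 2 fell with median-of-ratios scaling (1193 and 1003 of all genes), and 0 and 3 with quantile normalization (1103 and 1113). Markers of other tissues gave at 6 days against 1 day 1 rise of 6 pigment epithelium genes, RPE65 (0.60). The RPE65 call held in 7 of 13 other settings. It was lost with no filter, median-of-ratios or quantile scaling, the W-linked covariate (with or without median-of-ratios scaling) and W-linked libraries alone. It was also lost without C10R, C17L, C18R, C21R, C63R or C64L (adjusted p up to 0.0704). The 4 genes of fibroblasts and vessels and 3 of the lens gave 0 calls, beside 30.0% of all genes higher and 2.57% lower. By unadjusted p under 0.05 there were 0 of either, and 0 calls came with median-of-ratios or quantile scaling. The summed levels of these lists of markers were 35.2 to 40.9 CPM at 6 days and 32.8 to 39.1 CPM at 1 day for pigment epithelium, 48.8 to 71.0 and 48.5 to 68.5 CPM for fibroblasts and vessels, and 19.2 to 22.99 and 17.4 to 23.5 CPM for lens. At 3 days they were 33.2 to 42.6, 41.01 to 60.1 and 14.8 to 23.5 CPM in that order. At 6 days against 3 days MITF (0.23, limma adjusted p = 0.0252) and KDR (0.28, adjusted p = 0.0491) rose, beside 17.4% of all genes. Both were lost with median-of-ratios or quantile scaling, and KDR passed in 6 of 21 fits without 1 library. At 3 days against 1 day 0 passed, beside 10.1% of all genes. With median-of-ratios scaling 1 pigment epithelium and 1 lens gene fell there, beside 754 of all 12614 genes. The part of these cell types in the peptide values was not tested.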

How the data were processed

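The authors deposited 1 table of CPM values with 1 column per library. Per the submitters' processing notes, the tools were STAR and Partek and the build was GRCg6a; versions, annotation, strand use and the handling of reads shared by genes are not given in the sources used here. An offset of 0.0001 CPM was subtracted. In each library 94.2% to 95.2% of low values were whole multiples of the smallest step (tolerance 0.1 step), so library totals could be estimated but no count test was run. Genes of the table held 29.9% to 31.9% of those totals at 1 day, 30.8% to 33.3% at 3 days and 32.9% to 34.2% at 6 days.

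Positions are those of the table. Chromosome names of other genes came from a RefSeq gene table that matched 15419 symbols. Genes that reached 0.5 CPM in 7 or more libraries entered the fit as log2(CPM + 0.5). The fit used limma 3.58.1 and R 4.3.3 (trend, empirical Bayes, two-sided, all 21 libraries in 1 fit). Correlations and their permutation tests (100000 resamples, two-sided) used numpy 2.4.6, and their adjustment used scipy 1.17.1. Code for the tests was tested on simulated data. The peptide genes, gene lists and tests were chosen with earlier results of these data known. Every peptide gene is named, up to 4 genes of each list with the smallest adjusted p at 6 days against 1 day, each tested receptor, and the 3 genes most like each peptide gene; further list genes named beside a count or as examples (as QPCT, PCSK1, PCSK2, PCSK5, PCSK6 and FURIN) were chosen after their values were seen.

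Alternatives were pseudocounts of 0.05 and 2.5 CPM, a floor of 2.5 CPM or no filter, quantile and median-of-ratios scaling, 2 ages alone, array weights, robust empirical Bayes, a covariate (the code letter, or 35 W-chromosome genes averaged), W-linked libraries alone, and each library left out.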

Additional observations from a re-analysis of the deposited data

Results flagged for a closer look

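In a check for a library far from the others of its age, 30 groups of 7 libraries were examined (10 peptide genes at 3 ages), and 2 libraries stood apart. Chance gives about 1 in 20 groups where values are normally distributed. SST held 0 to 5 reads per library, so that rate does not apply to its groups. UTS2B at 6 days had 1.504 CPM in C58R, from 51 reads (exact 95% binomial interval 1.12 to 1.98 CPM, counting error only), and the next library had 0.876 CPM. SST at 3 days had 0.131 CPM in C33R, from 5 reads (0.0425 to 0.305 CPM), and the next had 0.0483 CPM.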

How the results depend on the processing

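No paired analysis was possible because the codes of the 3 ages share no number. Of 27 peptide gene differences, 17 kept their sign under every alternative run and 11 kept both sign and side of the threshold. The call of UTS2B at 6 days against 1 day held in 9 of 12 settings and in 14 of 21 fits without 1 library. Lower calls at 6 days against 1 day numbered 1, but 2 with median-of-ratios scaling and 2 with quantile normalization, and 0 with the floor of 2.5 CPM (4 peptide genes left) or with W-linked libraries alone, and 0 to 2 with 1 library left out. Over all 12614 genes 324 were lower, and 1068 and 993 with those 2 scalings, and 86 with W-linked libraries alone. With the floor of 2.5 CPM 253 of 9414 genes were lower. At 6 days against 3 days 1 peptide gene instead of 0 was lower with median-of-ratios scaling, with quantile normalization and with 2 ages alone, and 0 to 1 with 1 library left out. Over all 12614 genes 622 were lower there, and 1003, 1113 and 568 in those 3 settings. Leaving out 1 library gave 0 to 1 higher calls at 3 days against 1 day and at 6 days against 1 day. Signs changed for small differences. With the W-linked covariate VIP had 0.0063 at 3 days and 0.043 at 6 days, each against 1 day. At 6 days against 3 days, median-of-ratios scaling gave -0.036 for VIP, -0.0022 for TAC1 and -0.020 for CCK, quantile normalization -0.0034 for TAC1, and the letter covariate -0.021 for VIP. With W-linked covariate and median-of-ratios scaling together, ADCYAP1 had -0.012 and CCK -0.026 at 6 days against 3 days, and NTS -0.058 at 6 days against 1 day, where the scaling alone gave -0.018. W-linked libraries alone gave -0.16 for ADCYAP1 and 0.094 for UTS2B at 6 days against 3 days, and 0.038 for GCG at 6 days against 1 day. With 1 library left out, VIP ranged from -0.067 to 0.036 (3 days against 1 day), -0.042 to 0.062 (6 days against 3 days) and -0.052 to 0.033 (6 days against 1 day), NTS from -0.052 to 0.034 (3 days against 1 day) and CCK from -0.050 to 0.086 (6 days against 3 days). The causes were not tested. The share of each gene in the summed peptide level was not run, since it needs gene lengths. Counting errors were 19.2% for VIP, 17.4% for NPY and 16.8% for UTS2B, beside spreads of 23.8%, 31.1% and 30.7%, and SST could not be tested.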
